A study of Homo sapiens with 6 samples.

Results

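Pseudogenes are copies or relics of genes that are annotated as no longer encoding a working protein. The deposited RNA-seq table lists 5681 genes, of which 398 (7.01%) carry a pseudogene biotype, and 175 of these had a mean of at least 20 normalized counts over the 6 libraries. These 175 expressed pseudogenes are described here together with the parent genes that their names point to, a parent being the listed gene whose name is left when the final P and number are removed. All libraries were made from the human colorectal cancer cell line HT-29. In 3 libraries, labelled WT and numbered 1 to 3, the cells carried a Scramble hairpin. In the other 3, labelled OGT knock down and numbered 4 to 6, they carried a hairpin against OGT (shOGT), the gene of the only enzyme that adds O-GlcNAc to nuclear and cytoplasmic proteins. The study lists 2 OGT hairpins and does not name the one that was sequenced. OGT itself went from 9628, 11638 and 11619 normalized counts with Scramble down to 484, 621 and 537 with shOGT, or 4.99% of its mean.

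The biotypes tell how a copy arose. A processed pseudogene was copied from a spliced messenger RNA back into the genome and usually has no introns and no promoter of its own. An unprocessed pseudogene arose when a stretch of DNA was duplicated, so it often keeps exons, introns and flanking sequence. A unitary pseudogene is the disabled form of a gene that has no working copy left in the genome. Genes with abundant messages in the germ line, ribosomal protein genes above all, have left many processed copies, and a sequencing read from such a copy can match the parent equally well.

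The table was restricted by the authors to genes at least 2-fold apart between the groups with an adjusted p-value under 0.05. Every direction and fold change below therefore describes genes already chosen on the same contrast, and no p-value is attached to them. A gene was counted as higher or lower where limma's trend method on log2(normalized count + 1) gave an absolute log2 fold change (LFC, shOGT relative to Scramble) over 1 with an adjusted p under 0.05. By construction 99.4% of the 5671 genes fitted were called, 52.2% higher and 47.2% lower, and in 99.5% the 3 values of either group did not overlap. Reads recovered within the table numbered 4145921 to 4504303 per Scramble library and 3302558 to 3471647 per shOGT library. Of 12 colon epithelium markers 4 were listed, with values from 539 to 13339 normalized counts, KRT19 and KRT20 being higher and VIL1 and LGALS4 lower in shOGT. Of the leukocyte, fibroblast and endothelium lists, LYZ, CD14, PDGFRB and PECAM1 were listed, and each had higher values in all shOGT libraries than in any Scramble library. LYZ reached 17397 and PDGFRB 17.1, and their part in the results was not tested.

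Among the 175 expressed pseudogenes, 107 were higher and 64 lower in shOGT, with a median LFC of 1.18. In such bulk libraries a change in the share of cells that hold a transcript and a change in its amount per cell cannot be told apart. The remaining 4 (BX679664.3, AL354714.2, AC099654.7 and AC015910.1) had absolute LFCs from 0.94 to 0.99. The share that was higher, 61.1%, stood beside 42.6% of all listed genes with a mean of at least 20 and 37.3% of the protein-coding ones. The higher share differed between levels. At means from 20 to 50, 66.2% of the pseudogenes and 61.1% of all listed genes were higher, and at means of at least 200 these shares were 54.8% and 36.7%. Processed members went from 62.2% to 36.8% between these classes and unprocessed ones from 66.7% to 83.3%, while protein-coding genes had 49.7%, 34.5% at means of 50 to 200, and 36.0%. The groups overlapped in 2 members, AC099654.7 and SMG1P6. Means ran from 20.4 in ESPNP to 2334 in AC008038.1, with a median of 56.2. SRP54-AS1 and ESPNP lay just above the limit, at 20.5 and 20.4, while NPIPP1 and AC013268.4, at 19.9 and 19.8, lay just below it.

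**Figure D1:**
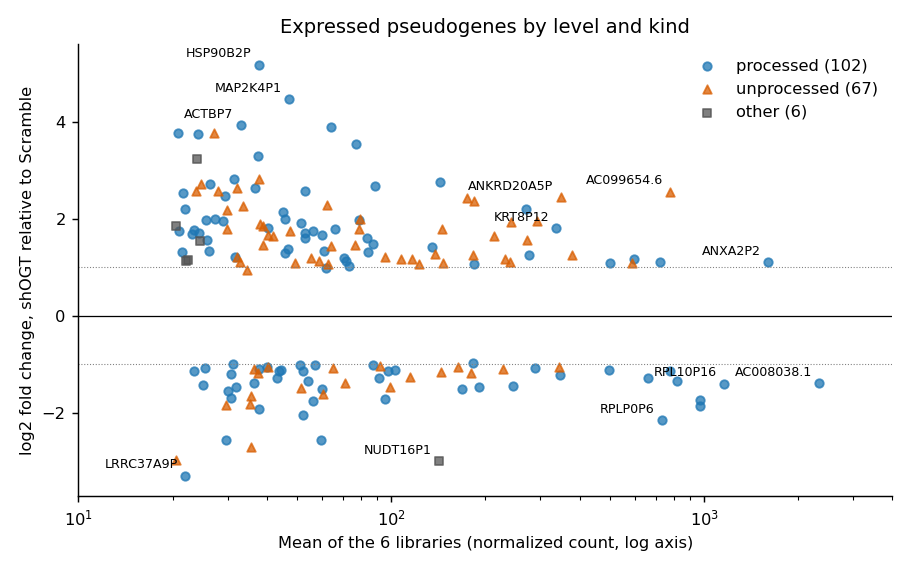
LFC (shOGT relative to Scramble, vertical axis) of each of the 175 expressed pseudogenes against its mean over the 6 libraries (normalized count, log axis), with processed (circles), unprocessed (triangles) and other kinds (squares) apart. Dotted lines mark LFCs of 1 and -1, the 4 members that were not called lie just inside them, and the LFCs above 3 belong to members with means under 100.

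Processed pseudogenes made up 102 of the members, unprocessed ones 67, and unitary or unspecified ones 6. Of the processed, 56 were higher and 43 lower (median LFC 1.12). Of the unprocessed, 46 were higher and 20 lower (median LFC 1.20). Among these 67, 7 lie in 1 run on chromosome 7 (below), all with higher means in shOGT. In either kind, members that lie together or share sequence are not separate observations. The other kinds had 5 higher and 1 lower. After the libraries were scaled instead on the median ratio of the listed genes, which moved the median LFC of all genes up by 0.71, the processed members had 57 higher and 11 lower and the unprocessed 47 and 4. Of the processed calls, 83.8% were then higher in place of 56.6%, and of the unprocessed 92.2% in place of 69.7%. Members of the kinds also differed in structure: 83 of the 102 processed members were annotated with 1 exon and their median exonic length was 872 bases, against 9 of 67 and 2751 bases for the unprocessed. Per kilobase of exon, the median level was 66.1 normalized counts for processed and 30.1 for unprocessed members. Of the processed members, 60 of 102 lay within the bounds of another gene, 27 of them on its own strand, whereas 8 of the 67 unprocessed ones did.

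The most abundant member was AC008038.1, a processed copy of EEF1G on chromosome 7 (133034607 to 133035920). EEF1G encodes the gamma subunit of translation elongation factor 1. AC008038.1 stood at 3542, 3268 and 3329 normalized counts in Scramble and at 1390, 1249 and 1225 in shOGT (LFC -1.39 ± 0.09, SE). It lies within CHCHD3 on the same strand, and 17.35% of its exonic bases overlap exons of CHCHD3 or MIR3654. Of its 75-base stretches, 71.7% also occur in transcripts of other genes, EEF1G among them. Whether reads of these genes entered its values was not tested. ANXA2P2, a processed copy of the calcium- and phospholipid-binding annexin A2 gene, followed with 924, 1082 and 1042 in Scramble and 2101, 2195 and 2289 in shOGT (LFC 1.11 ± 0.09). All 3 shOGT values of ANXA2P2 lay above all 3 Scramble values, and those of AC008038.1 lay below. The other 6 of the 8 most abundant were the ribosomal protein copies RPL10P16, RPS2P5, RPS2P46, RPL13AP5 and AC116533.1, all lower, and the zinc finger pseudogene AC099654.6, which was higher. For AC116533.1, 100% of the 75-base stretches also occur in other genes.

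The widest changes were found at low levels. HSP90B2P, a processed copy of a gene for the endoplasmic reticulum chaperone of the HSP90 family that lies within LRRC28 on the same strand, had 0, 1.80 and 1.84 normalized counts in Scramble and 55.8, 104 and 62.6 in shOGT. It rested on 4 reads against 205, a ratio of 61.7 with an exact 95% counting interval from 23.7 to 228. MAP2K4P1, a copy of the gene for a kinase that activates JNK and p38, went from 3.55, 4.51 and 1.84 to 90.5, 78.2 and 105 (LFC 4.47 ± 0.37). ACTBP7, a beta-actin copy, held 3.55, 6.31 and 0.92 in Scramble and 45.3, 55.7 and 86.5 in shOGT (LFC 3.94 ± 0.48). In each of these copies all shOGT values lay above all Scramble values. NUCKS1P1, AC125611.2 and AC005865.2 completed the 6 highest LFCs, at 3.89, 3.77 and 3.76. At the other end, LRRC37A9P fell from 30.2, 46.9 and 45.1 to 2.11, 3.21 and 4.55 (LFC -3.30 ± 0.40). NUDT16P1, a unitary pseudogene and a far more abundant member, fell from 243, 242 and 271 to 38.9, 25.7 and 28.5, or 12.3% of the Scramble mean. ESPNP, TCAF1P1, BNIP3P11 and RPL4P4 had LFCs of -2.98, -2.71, -2.56 and -2.56.

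How much of a pseudogene could be told from other genes was measured on the annotated transcripts. Each member's transcripts were split into overlapping windows of 75 bases, shorter than the 150-base reads, and the share of windows also present in a transcript of another gene was taken. For processed pseudogenes the direction moved with this share. With under 10% of windows shared, 33 of 40 were higher and 6 lower (median LFC 1.78). With 10 to 50% shared, 13 of 28 were higher and 14 lower (median -0.02). With at least 50% shared, 10 of 34 were higher and 23 lower (median -1.13). Without the 26 members that are ribosomal protein copies by name or description, the 3 classes had 29 of 34, 12 of 18 and 10 of 24 higher. Unprocessed pseudogenes had no such gradient, with 21 of 29, 17 of 26 and 8 of 12 higher.

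Level differed between these classes too. The median mean was 35.3 normalized counts for processed members with under 10% shared and 79.6 for those with at least 50%. Within means of 20 to 50, 20 of 25 members of the first class and 2 of 10 of the last were higher, and within means of 50 to 200 the counts were 10 of 12 and 6 of 14. How the authors' counting assigned reads that match several genes is not given in the sources used here, and its part in the gradient was not tested.

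**Figure D2:**
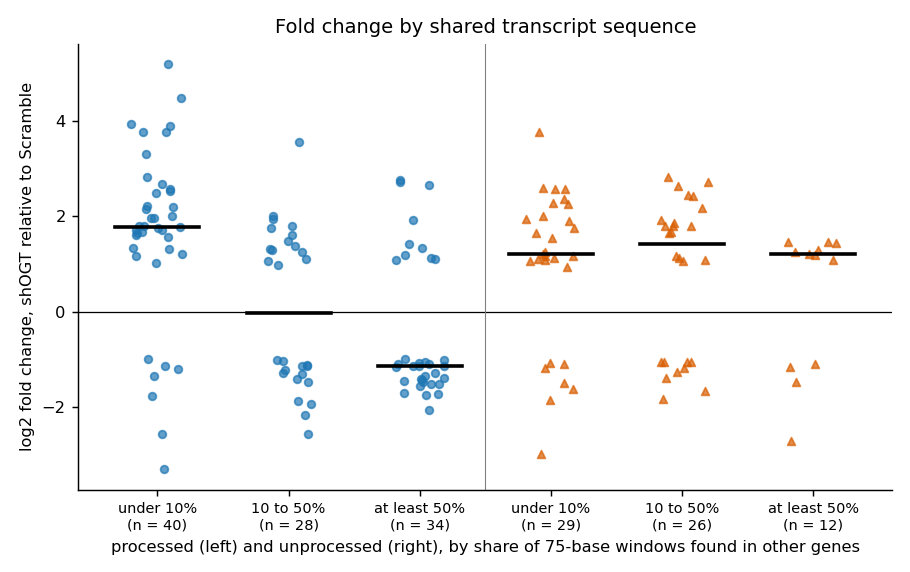
LFC of processed (left, circles) and unprocessed (right, triangles) pseudogenes, split by the share of their 75-base windows that also occur in transcripts of other genes; black bars are medians. The processed medians step down from 1.78 to -0.02 and -1.13, and the unprocessed medians stay between 1.20 and 1.41.

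The names of 90 members led to a gene of the annotation, and for 42 of them that parent was in the table. For the other 48 members the parent was not listed. Such a parent did not meet both limits of the authors, or was not tested by them. The 42 pairs thus hold only parents that met those limits, and the values of the unlisted parents could not be analysed here. The 42 pairs covered 35 parents, with 32 processed, 9 unprocessed and 1 unitary member. In 33 pairs the pseudogene and its parent moved the same way, 8 higher and 25 lower, and in 9 they moved oppositely. Counted per pair, 33 parents were lower and 9 higher, beside 47.2% lower of all genes fitted. Of listed genes with a mean of at least 20, 56.6% were lower, and of the 2371 with a mean of at least 200, 1489 were. Some agreement follows from such shares alone, and the amount was not computed. Of 16 ribosomal pairs 13 agreed, and of the other 26 pairs 20 did. Processed pairs split 25 to 7 and unprocessed pairs 7 to 2. The same-direction pairs had a median of 37.8% of pseudogene windows in the parent and 98.6% identity over the aligned part. The 9 opposite pairs had 0.348% and 91.0%. With under 10% of windows in the parent, 5 pairs agreed in sign and 8 did not, with 10 to 50%, 15 agreed and 0 did not, and with at least 50%, 13 agreed and 1 did not. The absolute difference between the LFC of pseudogene and parent had medians of 3.01, 0.30 and 0.24 in these classes. Since both genes of a pair were chosen as at least 2-fold apart, opposite pairs must differ widely. The first of these medians therefore largely restates the signs. In the 5 pairs of that class that agreed in sign, the LFC minus that of the parent was -0.03 in SNX18P3 and -0.54 in IGFL1P1. It was 1.46 in ACTG1P20, -1.55 in NUDT16P1 and 3.21 in MAP2K4P1. Of processed members whose named parent was not listed, 19 had under 10% of windows in that parent (16 higher, 3 lower), 9 had 10 to 50% (7 and 2) and 3 had at least 50% (1 and 2).

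**Figure D3:**
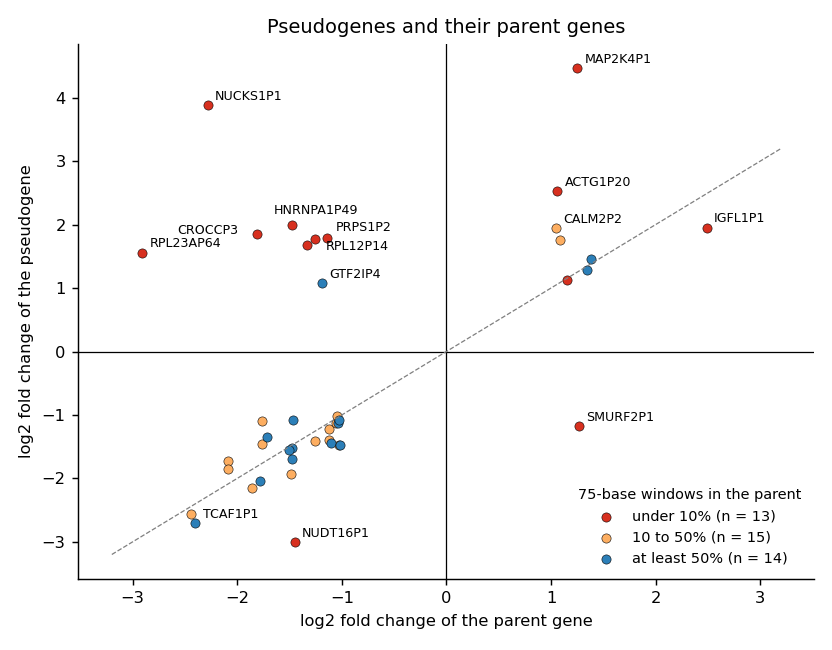
LFC of 42 pseudogenes (vertical axis) against the LFC of their parent genes (horizontal axis), coloured by the share of the pseudogene's 75-base windows found in the parent; the dashed line marks equal values. Pairs with at least 10% of windows shared lie near the dashed line except GTF2IP4, and 8 of the 9 opposite pairs have under 10% shared.

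RPL10P16 is the most abundant member with a listed parent. RPL10 encodes a protein of the large ribosomal subunit, and the first 150 coding bases of RPL10 (chrX:154398520-154399554, plus strand, exons 2 to 4) are shown above the same bases of its 2 expressed copies, RPL10P16 (chr19:12643770-12643919, minus strand) and RPL10P9 (chr5:168616352-168616501, plus strand). Positions are those of GRCh38, and capitals mark the bases of a copy that differ from the parent.
RPL10: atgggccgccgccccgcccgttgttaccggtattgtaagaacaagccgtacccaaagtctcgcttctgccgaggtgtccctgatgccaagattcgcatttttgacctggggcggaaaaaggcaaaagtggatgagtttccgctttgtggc
RPL10P16: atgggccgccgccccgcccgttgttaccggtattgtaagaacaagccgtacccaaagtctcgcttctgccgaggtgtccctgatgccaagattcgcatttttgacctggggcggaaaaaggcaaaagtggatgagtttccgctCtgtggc
RPL10P9: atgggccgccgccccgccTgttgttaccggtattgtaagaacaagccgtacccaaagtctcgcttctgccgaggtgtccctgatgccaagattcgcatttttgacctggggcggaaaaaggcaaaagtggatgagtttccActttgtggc
A stretch as long as a sequenced read thus held 1 difference in RPL10P16 and 2 in RPL10P9. RPL10P16 stood at 1691, 1681 and 1660 normalized counts in Scramble and at 662, 572 and 675 in shOGT (LFC -1.40 ± 0.09). RPL10P9 went from 430, 504 and 515 to 236, 152 and 246 (LFC -1.22 ± 0.17, short of the threshold at -0.997 without shOGT library 5). RPL10 itself went from 22568, 21637 and 21206 to 10133, 8816 and 11285 (LFC -1.12 ± 0.10). All 3 were lower in every shOGT library than in any Scramble library. Per kilobase of annotated exon, RPL10P16 made up 56.1 to 58.6% of RPL10 in the Scramble libraries and 44.7 to 48.9% in the shOGT libraries. Annotated exons add up to 4825 bases in RPL10 and 645 in RPL10P16, and shares per kilobase depend on these lengths.

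The RPL12 copies parted. RPL12, another large-subunit protein gene, went from 10676, 9988 and 9328 normalized counts to 4453, 3979 and 4100 (LFC -1.26 ± 0.09). RPL12P4, with 34.3% of its windows in RPL12, went from 32.8, 43.3 and 34.0 to 10.5, 10.7 and 19.3 (LFC -1.42 ± 0.35). RPL12P14, with 6.01%, went from 16.0, 9.01 and 6.44 to 30.5, 34.3 and 44.4 (LFC 1.77 ± 0.39). One copy was thus lower with the parent and the other higher. Over their whole alignments the copies were 98.6% and 94.1% identical to RPL12.

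HNRNPA1, which encodes a nuclear RNA-binding protein of splicing, had the same split among 3 copies. The parent went from 13669, 14714 and 13577 normalized counts to 5749, 4866 and 4489 (LFC -1.48 ± 0.10). HNRNPA1P10 went from 82.5, 91.0 and 95.7 to 27.4, 35.3 and 29.6 (LFC -1.52 ± 0.24), and HNRNPA1P7 had an LFC of -1.69 ± 0.37. HNRNPA1P49 went from 12.4, 5.41 and 13.8 to 63.2, 37.5 and 31.9 (LFC 2.00 ± 0.41). The shared windows were 60.0%, 65.0% and 0%.

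The opposite pair with the widest separation was NUCKS1P1 and NUCKS1, which encodes a chromatin-bound nuclear phosphoprotein. NUCKS1P1 lies on the same chromosome as its parent (chromosome 1, 227410617 to 227411319) and stood at 6.21, 7.21 and 7.36 normalized counts in Scramble and 119, 78.2 and 167 in shOGT (LFC 3.89 ± 0.34). NUCKS1 went from 8801, 9173 and 9355 to 1828, 1875 and 1918 (LFC -2.28 ± 0.08). Per kilobase of annotated exon the copy made up 0.657 to 0.733% of the parent in Scramble and 38.8 to 81.2% in shOGT. That length is 6546 bases for NUCKS1 and 703 for the copy, which had far fewer normalized counts than NUCKS1 in every library. None of its 75-base windows occurred in NUCKS1. Coding bases 387 to 536 of NUCKS1 (chr1:205718476-205719672, minus strand, exons 6 to 7) and the copy (chr1:227410800-227410949, minus strand) differed at 9 of 150 positions.
NUCKS1: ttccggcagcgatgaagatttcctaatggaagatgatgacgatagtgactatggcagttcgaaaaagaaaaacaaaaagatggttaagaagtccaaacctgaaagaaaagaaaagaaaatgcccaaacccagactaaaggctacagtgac
NUCKS1P1: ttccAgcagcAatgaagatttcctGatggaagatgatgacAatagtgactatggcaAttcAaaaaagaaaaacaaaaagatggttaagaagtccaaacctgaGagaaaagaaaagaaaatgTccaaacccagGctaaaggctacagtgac
NUCKS1P1 lies within LINC01641, a long noncoding gene on the other strand that was also higher, from 5.39 to 25.9 normalized counts on average.

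The remaining opposite pairs were mostly diverged copies of lower parents. RPL23AP64 went from 10.6, 14.4 and 12 to 29.5, 52.5 and 35.3 normalized counts (LFC 1.56 ± 0.35) while RPL23A, a large-subunit protein gene, had an LFC of -2.91 ± 0.08. PRPS1P2 went from 24.8, 27.9 and 35.0 to 103, 108 and 96.7 (LFC 1.79 ± 0.24), and its parent PRPS1, which makes the ribose donor of nucleotide synthesis, had an LFC of -1.14 ± 0.11. Both of these copies kept the groups apart, and the groups of their parents did not overlap either. The unprocessed CROCCP3, a copy of the rootletin gene of the ciliary rootlet, went from 31.9, 8.11 and 14.7 to 61.0, 64.3 and 53.5 (LFC 1.85 ± 0.41), against 290, 188 and 169 to 100, 54.6 and 37.6 for CROCC. Its Scramble values varied widely, and leaving out 1 library moved the LFC of CROCCP3 between 1.41 and 2.34. SMURF2P1 was the only opposite pair with a lower copy, from 70.1, 49.6 and 38.6 to 20, 27.8 and 19.3 (LFC -1.18 ± 0.32), while SMURF2, a ubiquitin ligase gene of TGF-beta signalling, had an LFC of 1.27 ± 0.09. Without Scramble library 1 the LFC of SMURF2P1 was -0.95, which is short of the threshold.

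GTF2IP4 was the exception among opposite pairs. It is annotated as a transcribed processed pseudogene, yet with 24 exons, and it lies on chromosome 7 (73154938 to 73207283) in the duplicated region that also holds GTF2I, the gene of general transcription factor IIi. GTF2IP4 went from 325, 328 and 310 normalized counts to 619, 754 and 670 (LFC 1.08 ± 0.11). GTF2I went from 1832, 1943 and 1969 to 745, 915 and 866 (LFC -1.19 ± 0.10). The 2 genes thus moved apart although 78.0% of the windows of GTF2IP4 occurred in GTF2I and 93.6% in any other gene, GTF2IP1 included, and their alignment was 99.8% identical. Over coding bases 942 to 1091 of GTF2I they did not differ at all. Per kilobase of annotated exon GTF2IP4 made up 45.5 to 51.3% of GTF2I in Scramble and 224 to 240% in shOGT. That length is 10438 bases for GTF2I and 3609 for GTF2IP4. In normalized counts GTF2IP4 stayed below GTF2I in every library.

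**Figure D4:**
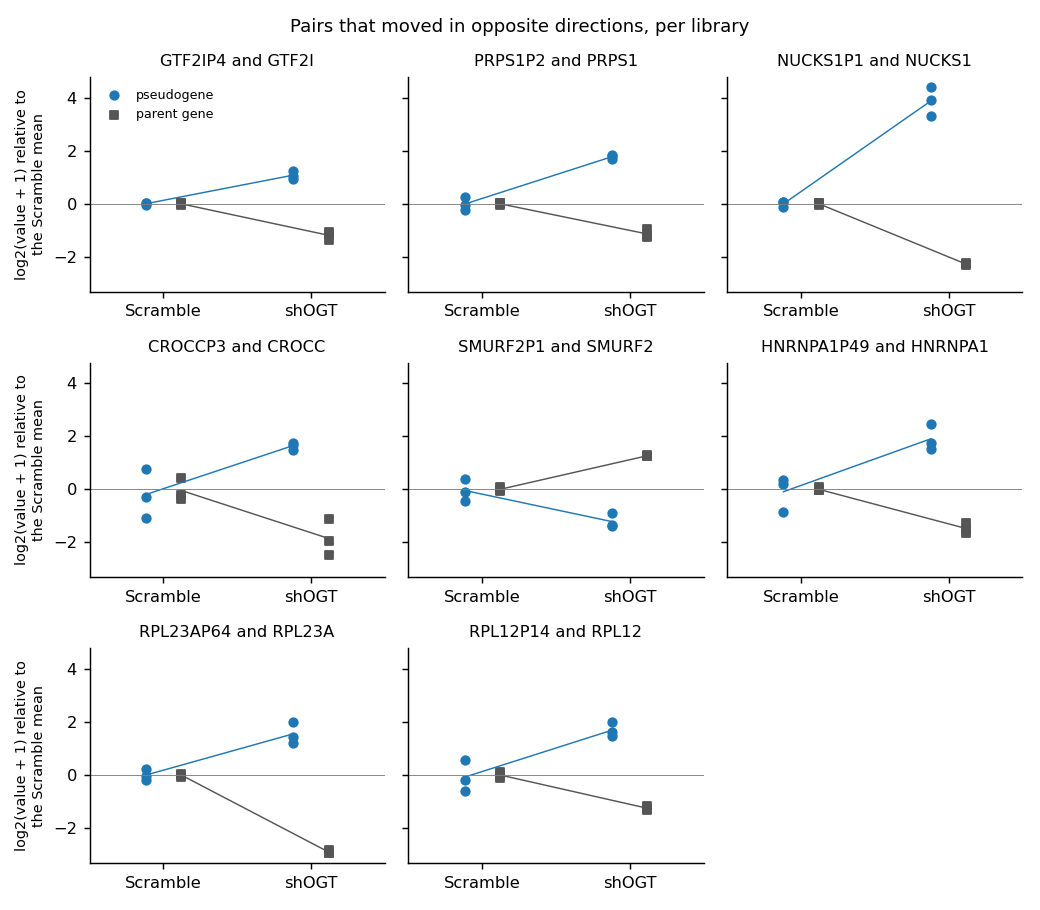
Values per library of 8 of the 9 pairs that moved in opposite directions, as log2(normalized count + 1) relative to the log2 of the Scramble mean + 1, with pseudogenes as circles, parents as squares and lines joining the group means. In each panel the 3 shOGT circles and squares lie on opposite sides of 0, with SMURF2P1 alone below 0 beneath its parent.

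Ribosomal protein copies were the largest family. By name there were 18, of which 14 were lower and 4 higher (median LFC -1.28). Of all genes fitted 47.2% were lower, and of listed genes with a mean of at least 20, 56.6% were. All 29 listed protein-coding ribosomal protein genes were lower (median LFC -1.21). RPLP0P6, a copy of the gene for the P0 protein of the ribosomal stalk, had the widest change among the abundant copies, from 1264, 1176 and 1146 normalized counts to 259, 286 and 257 (LFC -2.16 ± 0.10). RPS2P5 went from 1821, 1338 and 1337 to 490, 397 and 453 (LFC -1.73 ± 0.13), and RPS2P46 from 1549, 1474 and 1530 to 520, 400 and 352 (LFC -1.86 ± 0.13), beside an LFC of -2.09 ± 0.14 in RPS2. RPL13AP5 and RPL18AP3 had LFCs of -1.35 ± 0.11 and -1.13 ± 0.17, beside -1.71 and -1.03 in their parents, and RPL18AP3 was at -0.985 without Scramble library 1. Per kilobase of annotated exon (2413 bases in RPS2, 879 in RPS2P5) RPS2P5 made up 15.5 to 24.8% of RPS2 over the 6 libraries. This share was lowest in Scramble and highest in shOGT. The higher copies included RPL12P14, RPL23AP64 and RPL9P29, the last at 7.98, 4.51 and 9.20 in Scramble and 50.5, 60.0 and 55.8 in shOGT. RPL9 was not in the table. Under the scaling on median ratios 14 of the 18 copies had LFCs below 0, and 5 were called lower. The 29 genes were all below 0 under it, with 5 called lower and a median LFC of -0.49. The scaling moved the median LFC of both sets up by 0.72. Each lower copy and gene had an LFC under -1 before, so such a shift could not take it past 0.

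Other families were smaller. Their counts stand beside 52.2% of all genes fitted, 61.1% of expressed pseudogenes and 68.5% of those without ribosomal copies that were higher. A family of a few copies that were all higher is thus not set apart by its count. The 4 ferritin copies, from genes of the iron storage shell, were all higher with LFCs from 1.06 to 1.71: FTH1P7 went from 100, 126 and 130 normalized counts to 254, 220 and 272, and its LFC was 0.946 without Scramble library 1 and 0.995 without shOGT library 6. Both glycolytic copies derive from phosphoglycerate mutase and were higher, PGAM1P7 from 15.1, 22.5 and 8.28 to 66.3, 102 and 105 (LFC 2.57 ± 0.36) and PGAM1P8 with an LFC of 3.30 ± 0.41. The keratin copies KRT8P12 and KRT87P were higher too. KRT8P12 had 148, 148 and 150 in Scramble and 489, 486 and 598 in shOGT (LFC 1.81 ± 0.13). The histone copies HIST2H2BC and HIST2H2BD lie on opposite strands with overlapping exons and had LFCs of 1.12 and 1.45, so their values may count some of the same reads where strand was not used. The chaperone copies HSP90AA2P and HSP90B2P were higher, and of 3 cytoskeletal copies ACTBP7 and ACTG1P20 were higher and TUBBP5 lower (LFC -1.65 ± 0.33). Among 8 copies of abundant nuclear proteins 2 were higher and 6 lower, led by HMGB1P5, a copy of the gene for the chromatin protein HMGB1, from 902, 983 and 914 to 479, 381 and 304. Names taken to stand for families of segmental duplications gave 4 higher and 7 lower. These names also took in FAM3C2 and GTF2IP4, both higher and annotated as processed, and FAM45BP, which was lower and has 1 exon. The 3 zinc finger copies were higher, led by ZNF702P with 354, 378 and 363 in Scramble and 669, 861 and 961 in shOGT. HLA-W of the antigen presentation family (8.87, 9.91 and 13.8 to 74.7, 48.2 and 45.5) and the cytochrome P450 copies CYP4F35P and CYP2T1P (LFCs 1.79 and 1.15) were higher too. No member belonged to the translation factors by name.

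Copies of the same origin were also grouped after their values had been seen. The 4 pseudogenes of PPP4R2, a regulatory subunit of protein phosphatase 4, were all higher with LFCs from 1.91 to 3.55, and they share windows with each other. AC024560.2, the most abundant of them, went from 30.2, 28.8 and 52.5 normalized counts to 238, 288 and 219. The 3 copies of the aminopeptidase gene NPEPPS were higher, led by AC244154.1, which went from 239, 225 and 205 to 445, 605 and 557. They had 85.7 to 99.0% of their windows in other genes, chiefly in each other. The 3 copies of PKD1, the polycystin-1 gene, were lower, as was PKD1 (LFC -1.76 ± 0.09), and had 66.8 to 90.9% of their windows in other genes. Copies that share windows are not separate observations. BNIP3 copies differed: BNIP3P2 and BNIP3P4 had LFCs of 1.33 and 1.80, and BNIP3P11 went from 49.7, 42.4 and 59.8 to 6.32, 15.0 and 4.55.

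The 4 most abundant unprocessed members were AC099654.6, SBDSP1, AC244154.1 (above) and ANKRD20A5P. AC099654.6 stood at 186, 249 and 245 normalized counts in Scramble and at 1231, 1321 and 1449 in shOGT (LFC 2.56 ± 0.13). SBDSP1, a copy of the ribosome maturation gene SBDS, went from 386, 374 and 371 to 758, 748 and 899 (LFC 1.08 ± 0.11, or 0.996 without shOGT library 6). ANKRD20A5P, of an ankyrin repeat family, went from 101, 95.5 and 125 to 514, 637 and 616 (LFC 2.45 ± 0.15). Neither group overlapped in any of these. IGFL1P1, a copy in the IGF-like family, went from 164, 91.0 and 101 to 623, 470 and 304 and exceeded its parent IGFL1, which was at 0, 2.70 and 0 in Scramble and at 10.5, 5.36 and 7.97 in shOGT. TCAF1P1, OCLNP1 and MUC20P1, copies of genes for a channel-associated factor, the tight junction protein occludin and a mucin, shared 88.9%, 78.0% and 51.5% of their windows with their parents and had LFCs of -2.71, 1.46 and 1.28, beside -2.40, 1.38 and 1.34 in the parents. Of the other kinds, WFDC21P, a unitary pseudogene of the WAP protease inhibitor family, went from 8.87, 2.70 and 1.84 to 49.5, 41.8 and 38.7 (LFC 3.23 ± 0.46), and AC112497.1, which overlaps CA5BP1 on the other strand over 72.3% of its exonic bases, had an LFC of 1.53. NUDT16P1 was the only lower member of these kinds.

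AC099654.6 opens a run of 10 listed pseudogenes within 16885 bases of chromosome 7 (57163168 to 57180052), of which 7 were expressed members. All 10 had higher means in shOGT. After the zinc finger pseudogene come 8 copies of mitochondrial genes, and GUSBP10, a beta-glucuronidase copy, closes the run. Such nuclear copies arise when mitochondrial DNA is inserted into a chromosome, and here the copies of ATP6, CO3, ND3, ND4L, ND4, ND5, ND6 and CYB stand in the order of the mitochondrial genome, with ND6 on the other strand. MTND5P6, a copy of the gene for a complex I subunit, went from 24.8, 34.2 and 32.2 normalized counts to 98.9, 182 and 105 (LFC 2.00 ± 0.28). MTND4P4 went from 16.0, 24.3 and 21.2 to 98.9, 132 and 80.8 (LFC 2.28 ± 0.28). GUSBP10 went from 107, 100 and 99.4 to 379, 297 and 295 (LFC 1.64 ± 0.15). In AC099654.7 the groups overlapped, with 17.7, 32.4 and 18.4 against 56.8, 58.9 and 23.9. Library 5 of shOGT held the highest value in 7 of the 8 mitochondrial copies, while AC099654.6 was highest in library 6 and GUSBP10 in library 4. The copies have diverged from the mitochondrial genome: bases 160 to 309 of the MT-ND5 coding sequence (chrM:12496-12645, plus strand) and the same stretch of MTND5P6 (chr7:57171128-57171277, plus strand) differed at 34 of 150 positions.
MT-ND5: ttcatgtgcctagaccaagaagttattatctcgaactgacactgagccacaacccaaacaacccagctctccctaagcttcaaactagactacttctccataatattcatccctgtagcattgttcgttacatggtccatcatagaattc
MTND5P6: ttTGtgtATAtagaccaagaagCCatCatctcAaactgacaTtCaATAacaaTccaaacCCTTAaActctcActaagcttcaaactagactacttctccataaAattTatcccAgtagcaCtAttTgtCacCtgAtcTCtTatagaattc
The longest identical run in this stretch was 31 bases, and none of the 75-base windows of MTND5P6 occurred in another annotated transcript.

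**Figure D5:**
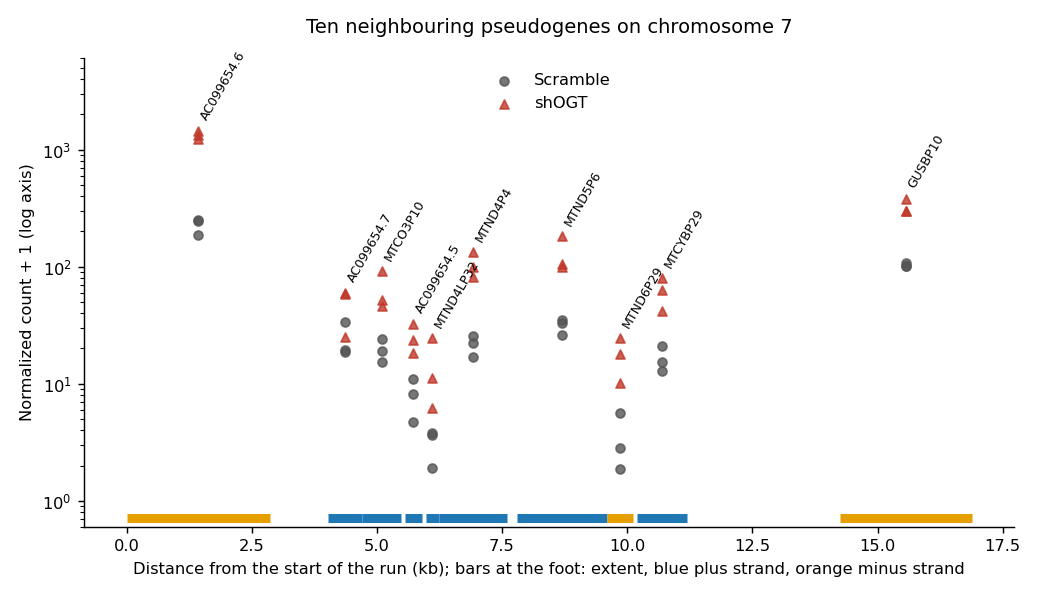
Normalized counts + 1 (log axis) of the 10 neighbouring pseudogenes of the chromosome 7 run in each Scramble library (circles) and shOGT library (triangles), by distance from the start of the run in kb; bars at the foot give the extent and strand of each gene. The shOGT triangles lie above the Scramble circles in 9 of the 10 genes, and those of AC099654.7 overlap.

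Some members lay inside or across other listed genes, whose unspliced or overlapping transcripts can be counted with theirs. Of 4 members within a listed gene on the same strand, 3 moved with it. ACTBP7 lies in an intron of FRMD5, which went from 610 ± 2.32 to 2186 ± 142 normalized counts (SD, n = 3), and AL353625.1 in IGF2R, the gene of the mannose 6-phosphate receptor, which went from 5296 ± 111 to 14403 ± 956. RHOT1P1 lies in ANKRD20A5P. The exception was AC004381.2, a copy in the acyl-CoA synthetase family, which went from 6.21, 8.11 and 7.36 to 40.0, 57.8 and 47.8 inside ACSM3, which went from 505 ± 18.6 to 49.3 ± 5.36. The 7 members with exons overlapping a listed gene on the same strand all had LFCs of the same sign as that gene. In AC099654.7, MTCO3P10 and MTND4P4, however, the overlap was under 1% of exonic bases, and the first and second of these overlap each other. ANKRD20A5P and CYP4F35P overlap the same gene, AP005212.4, over 23.1% and 34.5% of their exonic bases. On the opposite strand, 8 of 11 members within a listed gene had LFCs of its sign, RPL18AP3, BX679664.3 and FABP5P7 being the exceptions. All enclosing genes of these 11 were higher, so the 8 are simply the higher members, beside 61.1% higher among all expressed pseudogenes. No expected share was set for any of these counts of agreement. Whether reads of the enclosing genes entered these values was not tested.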

How the data were processed

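RNA from HT-29 cells with a Scramble hairpin (n = 3 libraries) or shOGT (n = 3 libraries) was sequenced, and groups were taken from the sample labels. The study says in general that its measurements came from distinct samples, but whether these libraries were separate cultures is not given in the sources used here, so the errors measure the spread between these libraries, which may be technical. Per the labels, poly(A) RNA was captured with oligo(dT), second strands carried dUTP and adapters carried unique molecular identifiers, whereas an Agilent SureSelect strand-specific kit is given in the paper. The submitters' processing notes name cutadapt 1.9, HISAT2 2.0.4, UMI-tools, StringTie 1.3.4d, DESeq2 and edgeR. They also name the mouse build mm8, but all 5681 gene identifiers and positions match human GENCODE 29 (GRCh38). Use of strand and treatment of reads matching several genes are not given in the sources used here.

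The deposited values are a signal: normalized counts not divided by length, whose steps gave whole reads for 100% of the values (tolerance 0.02). The authors' fold changes and p-values were not used, beyond their range, which shows the restriction of the table. The fit was limma's trend method (limma 3.58.1, R 4.3.3) on log2(normalized count + 1), with group as the term, over 5671 genes with at least 1 in at least 3 libraries. It was tested on simulated data. Alternatives were edgeR 4.0.16 and DESeq2 1.42.0 on recovered reads, rescaling, other pseudocounts, filters and limits, and leaving out each library. Shared windows and overlaps came from GENCODE 29, and identity from the best blastn 2.17.0 alignment. Counting intervals are exact and cover counting error only.

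The members and lists were chosen with earlier results of these data known. Named members were the 8 most abundant, the 6 highest and 6 lowest LFCs without overlap, every opposite pair, the 8 most abundant same-direction pairs, the 4 most abundant unprocessed and 4 other members, the most abundant of each family, and those beside the limit of 20. Other names were chosen after values were seen. An item of that rule and some sequences are not reported here.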

Additional observations from a re-analysis of the deposited data

How the results depend on the processing

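All 175 expressed pseudogenes kept their direction under every alternative fit. As only genes at least 2-fold apart were listed, a change of direction was hardly possible, so this adds no evidence. Rescaling by the median of ratios, which moved the median LFC of all genes by 0.71, left 109 higher and 16 lower, so that 83.8% of the processed calls were higher in place of 56.6%. It also lowered the lower calls to 11 processed and 4 unprocessed, and the pairs to 14 in the same and 3 in opposite directions. Among processed members the lower calls fell to 3 with under 10% and 4 with at least 50% of windows shared. The lower ribosomal copies fell to 5. edgeR and DESeq2 each gave 109 higher and 66 lower. With a limit of 10 on the mean there were 161 higher (86 processed), 31 lower unprocessed and 14 opposite pairs. With a limit of 50 there were 56 higher and 40 lower, 28 and 27 processed, 28 and 12 unprocessed, and 3 opposite pairs. These limits change which genes are counted. Choices made after the data were seen gave 37 lower members without those sharing at least 50% of their windows. With 150-base windows in place of 75, 16 processed members with under 10% shared were lower. Of the processed members with at least 50% shared, 4 were higher and 13 lower.

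Leaving out each library in turn gave 103 to 107 higher and 53 to 63 lower. Among processed members these counts were 53 to 57 and 37 to 43, and among unprocessed 43 to 45 and 15 to 20. Pairs numbered 26 to 33 in the same direction and 8 to 9 in opposite ones. Processed members with under 10% of windows shared had 31 to 33 higher and 6 to 7 lower. Processed members with at least 50% shared had 9 to 10 and 19 to 23. Ribosomal copies had 4 higher and 12 to 14 lower. No paired analysis was possible because the groups share no replicate numbers. Genes outside the table could not be scaled or compared, and members with few reads carry the widest errors.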
